A study of Saccharomyces cerevisiae with 21 samples.

Results

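Does the loss of Ndt80 redistribute meiotic DNA breaks by the same amount with and without Tel1? To ask this, 4 genotypes were set against each other as a square, at 6 h into meiosis: *sae2Δ ndt80Δ tel1Δ*, *sae2Δ tel1Δ*, *sae2Δ ndt80Δ* and *sae2Δ*. All 4 are homozygous diploids of the SK1 background and all lack *SAE2* and *NUC1*, so the genotype with Ndt80 and Tel1 is itself a mutant and not wild type. All also carry *ho*::*LYS2*, *lys2*, *ura3*, *arg4-nsp*, *nuc1*::*LEU2* and the inserts *his4X*::*LEU2* (the *HIS4*::*LEU2* locus) and *leu2*::*hisG* on chromosome III. Each genotype is a single strain (MJ965, VG402, MJ962 and MJ315), so that strain and genotype cannot be told apart, and the markers differ: *tel1Δ* is HYG in MJ965 and HphMX4 in VG402, *sae2Δ* is KanMX4 in VG402 and KanMX6 in the others, and *ndt80Δ* is *LEU2*. The comparison used all libraries of these genotypes, 20 of the 21 in the series, and the remaining library, of *sae2Δ ndt80Δ* *spo11-Y135F*, served as the control for signal without Spo11 activity; its label lists no *nuc1* allele.

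Spo11 makes the DNA double-strand breaks (DSBs) that start meiotic recombination, and Sae2 is needed to release it, so in *sae2Δ* cells each break keeps Spo11 bound to its ends. CC-seq sequences DNA from these Spo11-linked ends. Ndt80 is the transcription factor that drives exit from meiotic prophase, and *ndt80Δ* cells stay in late prophase. Tel1, the yeast ATM kinase, lowers the chance of a break close to one already made, and is also part of the checkpoint that holds cells with unrepaired breaks in prophase.

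Summing the 2 pairs of libraries with a shared replicate number (1A and 1B, 7B and 7C) left 18 replicates, namely 5 for *sae2Δ ndt80Δ tel1Δ*, 4 for *sae2Δ tel1Δ*, 4 for *sae2Δ ndt80Δ* and 5 for *sae2Δ*. The study's methods speak of biological replicates that are independent, while the labels do not say which libraries came from separate cultures, so p-values measure only the spread between these samples. Reads on the 16 nuclear chromosomes outside the rDNA totalled 3639390 to 5507974 per replicate in *sae2Δ ndt80Δ tel1Δ*, 3768002 to 9385310 in *sae2Δ tel1Δ*, 4428443 to 5818082 in *sae2Δ ndt80Δ* and 3217566 to 8634134 in *sae2Δ*. *NDT80* held 0 or 1 read in each library of the 2 *ndt80Δ* genotypes, against 73 to 124 in *sae2Δ tel1Δ* and 20 to 78 in *sae2Δ*, and *TEL1* held at most 16 reads in *sae2Δ ndt80Δ tel1Δ* and 29 in *sae2Δ tel1Δ*, against 71 to 976 in *sae2Δ ndt80Δ* and 66 to 264 in *sae2Δ*. The share of reads that fell in hotspots varied between replicates. It was 71.1%, 78.0%, 65.3%, 45.8% and 87.0% in *sae2Δ ndt80Δ tel1Δ*, 64.7%, 61.6%, 58.1% and 56.0% in *sae2Δ tel1Δ*, 37.3%, 74.9%, 47.2% and 85.2% in *sae2Δ ndt80Δ*, 70.0%, 79.6%, 69.2%, 73.9% and 73.8% in *sae2Δ*, and 9.29% in the *spo11-Y135F* control. The replicates numbered 4 of *sae2Δ ndt80Δ tel1Δ* and 1 and 3 of *sae2Δ ndt80Δ* were thus below 50%, so results are also given for reads in hotspots alone. Replicates 3, 4 and 5 of *sae2Δ ndt80Δ tel1Δ* and 3 and 4 of *sae2Δ ndt80Δ* belong to a separate series of time-course libraries that holds no library with *NDT80*, and values without that series are given where they differ.

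Throughout, the Ndt80 effect is a log2 ratio with *NDT80* on top: *sae2Δ tel1Δ* over *sae2Δ ndt80Δ tel1Δ* without Tel1, and *sae2Δ* over *sae2Δ ndt80Δ* with Tel1. A positive effect therefore means a lower value in the *ndt80Δ* genotype. The difference of the 2 effects, the effect without Tel1 minus the effect with Tel1, is the interaction, and a positive interaction means that the Ndt80 effect was larger, or less negative, without Tel1. Because every value is a share of a library, a gain in one region comes with a loss elsewhere.

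Read density near centromeres carried the clearest interaction. In each replicate the log2 density of 50 kb bins was fitted on 3 terms, which were log2 chromosome length, lying within 100 kb of the centromere and lying within 50 kb of a chromosome end. The centromere coefficient was -0.35, -0.32, -0.25, -0.053 and -0.20 in *sae2Δ ndt80Δ tel1Δ*, and 0.18, 0.15, 0.12 and 0.12 in *sae2Δ tel1Δ*. With Tel1 it was -0.16, -0.31, -0.12 and -0.28 in *sae2Δ ndt80Δ* and -0.23, -0.27, -0.24, -0.23 and -0.24 in *sae2Δ*. All 4 *sae2Δ tel1Δ* replicates were thus above 0, and all 14 others were below 0. The Ndt80 effect on this coefficient was 0.38 without Tel1 (exact permutation test, two-sided, p = 0.0159) and -0.023 with Tel1 (p = 0.627). The interaction was 0.40 (SE 0.071, p = 0.00529 by exact permutation of the Ndt80 labels within each Tel1 background, adjusted p = 0.0159 over the 3 coefficients). This test takes the labels as exchangeable under no Ndt80 effect in either background. By the same exact test the value was 0.52 with reads in hotspots only (adjusted p = 0.0127). By that test it was 0.48 without the time-course series (adjusted p = 0.0524) and 0.37 without the 3 replicates under 50% (adjusted p = 0.0857). Both of these settings leave fewer replicates and so fewer arrangements, which raises the smallest p the test can give. Over all alternatives the adjusted p lay between 0.0051 and 0.146.

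The other 2 coefficients gave no call. For chromosome length, the coefficient averaged -0.35 ± 0.13 in *sae2Δ ndt80Δ tel1Δ* and -0.36 ± 0.038 in *sae2Δ tel1Δ*, against -0.20 ± 0.075 in *sae2Δ ndt80Δ* and -0.24 ± 0.023 in *sae2Δ* (SD, n = 5, 4, 4 and 5). Fitted beside the other terms, the length coefficient thus had a negative mean in all 4 genotypes, and the interaction was 0.039 (SE 0.074, adjusted p = 0.628 by exact permutation). Its direction depended on the reads used: by exact permutation it was -0.10 with reads in hotspots only (adjusted p = 0.0843) and -0.17 after subtraction of background, which passed the threshold (adjusted p = 0.031). For chromosome ends, the coefficient averaged -1.59 ± 0.58 in *sae2Δ ndt80Δ tel1Δ* and -1.04 ± 0.13 in *sae2Δ tel1Δ*, against -1.10 ± 0.55 in *sae2Δ ndt80Δ* and -1.31 ± 0.19 in *sae2Δ*. Its interaction was 0.77 (SE 0.39, adjusted p = 0.109 by exact permutation), and 0.32 with reads in hotspots only (adjusted p = 0.126).

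Densities summed over regions gave the size of these differences as folds of the average over all 16 chromosomes. Within 100 kb of the centromeres the density was 0.955, 0.970, 0.954, 1.07 and 1.07 times the average in *sae2Δ ndt80Δ tel1Δ*, against 1.30, 1.25, 1.23 and 1.22 times in *sae2Δ tel1Δ*. The 2 groups did not overlap. With Tel1 present it was 0.968, 0.967, 1.01 and 0.986 times the average in *sae2Δ ndt80Δ*, against 1.00, 1.01, 1.00, 1.02 and 1.01 times in *sae2Δ*, and the ranges of these groups overlapped. The Ndt80 effect was 0.31 without Tel1 and 0.035 with Tel1. The interaction of 0.28 (SE 0.047) had an adjusted p of 0.0557 over 3 regions by exact permutation, just above the threshold of 0.05, and of 0.0446 with reads in hotspots only, where it was 0.40. By the same exact test it did not pass without the time-course series (0.32, adjusted p = 0.1). Nor did it pass without the 3 replicates under 50% in hotspots (0.29, adjusted p = 0.0857). The first setting leaves replicates 1 and 2 of each *ndt80Δ* genotype, and the second leaves replicates 2 and 4 of *sae2Δ ndt80Δ*. With fewer arrangements the smallest possible p is larger, so these tests cannot show whether the interaction was lost.

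Chromosomes I, III and VI, the 3 shortest, were also densest in *sae2Δ tel1Δ*. Their density was 1.17, 1.21, 1.12, 1.41 and 1.48 times the average in *sae2Δ ndt80Δ tel1Δ*, against 1.97, 1.79, 1.73 and 1.72 times in *sae2Δ tel1Δ*. In cells with Tel1 it was 1.04, 1.09, 1.20 and 1.15 times in *sae2Δ ndt80Δ*, against 1.20, 1.20, 1.22, 1.21 and 1.21 times in *sae2Δ*. The *sae2Δ tel1Δ* replicates were the highest of all, and no *sae2Δ ndt80Δ tel1Δ* replicate reached them. The Ndt80 effect was 0.50 without Tel1 and 0.11 with Tel1, and both were past the threshold (exact permutation, adjusted p = 0.0119 and 0.0476). By the same exact test the interaction was 0.40 (SE 0.10, adjusted p = 0.0557), and it was 0.61 with reads in hotspots only (adjusted p = 0.0446). It did not pass that test without the time-course series (0.42, adjusted p = 0.137). Nor did it pass without the 3 replicates under 50% in hotspots (0.44, adjusted p = 0.0939). With 5 replicates against 4, the smallest p that permutation can give within 1 background is 0.00794. It is larger in both settings just given, where fewer replicates remain.

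Within 50 kb of chromosome ends the replicates of the *ndt80Δ* genotypes spread widely. The density was 0.318, 0.337, 0.466, 0.707 and 0.377 times the average in *sae2Δ ndt80Δ tel1Δ* and 0.531, 0.587, 0.594 and 0.601 times in *sae2Δ tel1Δ*, and it was 0.741, 0.420, 0.730 and 0.473 times in *sae2Δ ndt80Δ* and 0.554, 0.440, 0.531, 0.475 and 0.525 times in *sae2Δ*. The 3 highest values were those of the 3 replicates with under 50% of their reads in hotspots. The interaction was 0.64 (SE 0.31, adjusted p = 0.0557 by exact permutation). It was 0.43 with reads in hotspots only, 0.33 after subtraction of background and 0.47 without those 3 replicates, none of them past the threshold, and 0.97 without the time-course series. The part that reads outside hotspots have in this value was not tested. The *spo11-Y135F* control had 0.941 times the average density near ends, 0.989 times near centromeres and 0.964 times on chromosomes I, III and VI.

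**Figure D1:**
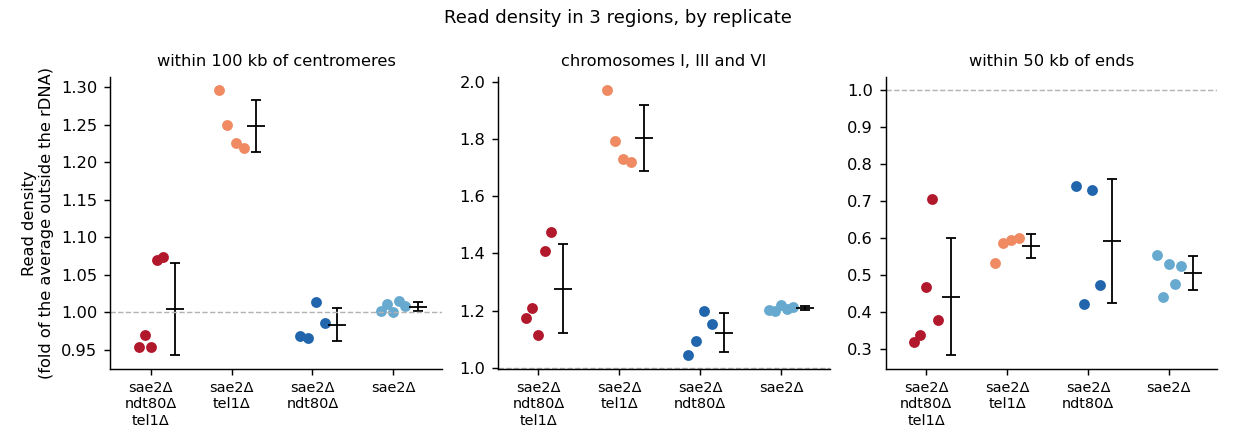
Read density in 3 regions as a fold of the average outside the rDNA, for each replicate of the 4 genotypes, with the mean and SD beside the points. In the centromere plot and in that of chromosomes I, III and VI, the 4 *sae2Δ tel1Δ* replicates lie above every other replicate, while near ends *sae2Δ ndt80Δ tel1Δ* replicate 4 and *sae2Δ ndt80Δ* replicates 1 and 3 stand highest.

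When the genome was split by distance from the centromere, the Ndt80 effect without Tel1 turned with distance. Without Tel1 it was 0.48, 0.37 and 0.23 in the classes 0 to 25, 25 to 50 and 50 to 100 kb, 0.067 at 100 to 150 kb, -0.20 at 150 to 200 kb, -0.28 at 200 to 300 kb, -0.15 at 300 to 500 kb and -0.056 beyond 500 kb. With Tel1 the effect stayed between -0.044 and 0.071 in the 8 classes. The interaction was 0.48 (SE 0.11), 0.38 (SE 0.067) and 0.17 (SE 0.056) in the 3 nearest classes, -0.0041 (SE 0.043) at 100 to 150 kb, -0.16 (SE 0.033) and -0.26 (SE 0.052) at 150 to 200 and 200 to 300 kb, and -0.11 (SE 0.030) and -0.044 (SE 0.064) in the last 2. None of the 8 passed the threshold with all reads (exact permutation, adjusted p from 0.0521 to 0.94), and 4 had an unadjusted p under 0.05. With reads in hotspots only, 7 of the 8 passed (adjusted p of 0.0292 in 6 classes and 0.00907 beyond 500 kb), all but the class from 100 to 150 kb. No class passed without the time-course series (exact permutation, adjusted p from 0.133 to 0.533). The same held without the 3 replicates under 50% in hotspots (exact permutation, adjusted p from 0.0571 to 0.462). In the first of these settings only replicates 1 and 2 of each *ndt80Δ* genotype remain. The 3 nearest classes then gave 0.59, 0.46 and 0.15. With fewer replicates there are fewer arrangements, so neither setting can show by this test whether the interaction was lost.

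The level in the class nearest the centromere shows what moved. Within 25 kb of it the density was 0.693, 0.696, 0.762, 0.934 and 0.769 times the average in *sae2Δ ndt80Δ tel1Δ*, against 1.08, 1.08, 1.06 and 1.05 times in *sae2Δ tel1Δ*. With Tel1 it was 0.860, 0.709, 0.885 and 0.737 times in *sae2Δ ndt80Δ*, against 0.793, 0.772, 0.809, 0.818 and 0.783 times in *sae2Δ*. Only the *sae2Δ tel1Δ* replicates were above the average there, and the density in all 14 others was below it. At 200 to 300 kb the order was the opposite, with 1.19, 1.17, 1.16, 1.00 and 1.11 times in *sae2Δ ndt80Δ tel1Δ* against 0.904, 0.928, 0.942 and 0.930 times in *sae2Δ tel1Δ*, and with 1.04, 1.08, 1.01 and 1.07 times in *sae2Δ ndt80Δ* against 1.03, 1.04, 1.03, 1.04 and 1.02 times in *sae2Δ*. The 4 *sae2Δ tel1Δ* replicates were the only ones below the average at that distance.

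Distance from the nearer chromosome end gave 3 classes past the threshold of the 7 tested with all reads. The interaction was 0.39 (SE 0.11, adjusted p = 0.0282) at 50 to 100 kb, -0.077 (SE 0.019, adjusted p = 0.0282) at 200 to 300 kb and -0.18 (SE 0.060, adjusted p = 0.0341) beyond 300 kb, by exact permutation. At 50 to 100 kb the density was 0.685, 0.694, 0.763, 0.955 and 0.893 times the average in *sae2Δ ndt80Δ tel1Δ*, against 1.00, 0.993, 0.987 and 0.993 times in *sae2Δ tel1Δ*. With Tel1 present it was 0.950, 0.861, 0.973 and 0.977 times in *sae2Δ ndt80Δ*, against 0.932, 0.896, 0.902, 0.882 and 0.899 times in *sae2Δ*. No *sae2Δ ndt80Δ tel1Δ* replicate reached the lowest *sae2Δ tel1Δ* value, while the 2 genotypes with Tel1 overlapped. Closer to the end the interaction was 0.94 (SE 0.56) within 20 kb and 0.53 (SE 0.23) at 20 to 50 kb, neither past the threshold. Without the time-course series both passed, at 1.44 and 0.79 (adjusted p = 0.0333 and 0.0356 by exact permutation), and the first was -0.64 after subtraction of background. All 3 calls were lost with reads in hotspots only (adjusted p from 0.0573 to 0.0671), where the interactions were 0.45, -0.082 and -0.15. They were also lost when any 1 replicate of *sae2Δ tel1Δ*, or replicate 1 or 3 of *sae2Δ ndt80Δ*, was left out, where the number of classes past the threshold was 0 of 15.

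**Figure D2:**
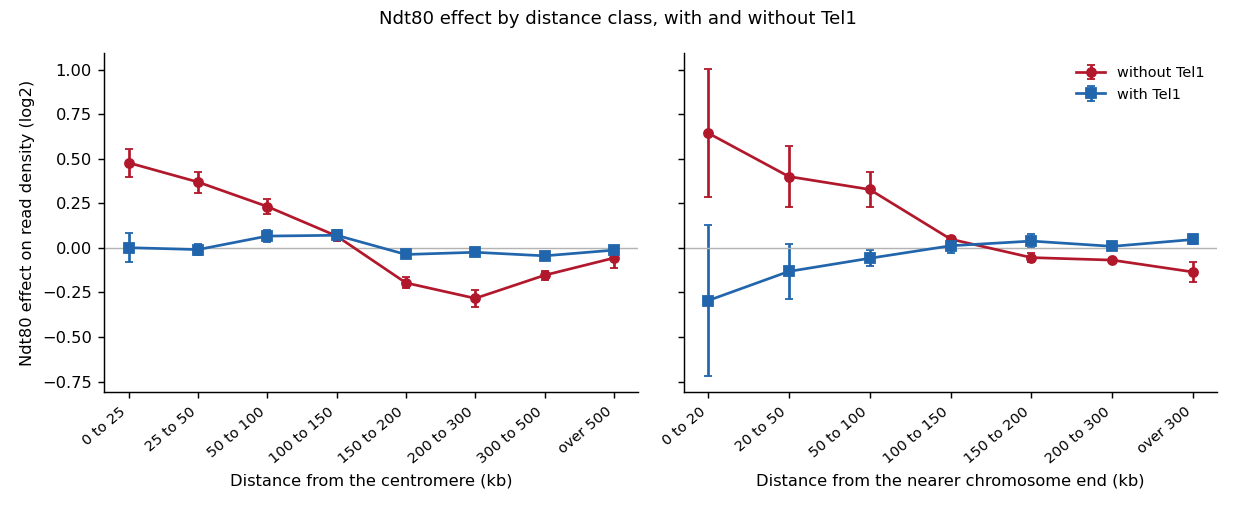
Ndt80 effect on log2 read density (with *NDT80* over *ndt80Δ*) by distance from the centromere and from the nearer chromosome end, without Tel1 (red) and with Tel1 (blue); error bars are SE over replicates. Without Tel1 the effect falls to -0.28 at 200 to 300 kb from the centromere and is 0.48 nearest to it, while with Tel1 it stays between -0.044 and 0.071 in the centromere plot.

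Split by chromosome size, the interaction next to the centromere was positive in each size, and differences between sizes were not tested. For chromosomes I, III and VI it was 0.54 within 25 kb of the centromere, 0.43 at 25 to 50 kb, 0.31 at 50 to 100 kb and 0.38 at 100 to 150 kb, and the 2 farther classes held only 51.7 and 1.77 kb (0.92, SE 0.47, and 1.73, SE 1.12). On the 6 medium chromosomes (under 800 kb) it was 0.37, 0.32 and 0.059 in the 3 nearest classes, -0.23 at 150 to 200 kb and 0.058 (SE 0.11) at 300 to 500 kb. On the 7 long chromosomes it was 0.55, 0.38 and 0.14 in the 3 nearest classes and -0.33 at 200 to 300 kb. Of the 22 classes of size and centromere distance, 2 passed the threshold by exact permutation, both on long chromosomes, at 25 to 50 and 50 to 100 kb (adjusted p = 0.0402 for both).

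Counted by whole chromosome and fitted with edgeR over all 16, the interaction passed the threshold on 11 chromosomes (68.8%). It was positive on 5 of them, chromosomes I (0.45, SE 0.12, adjusted p = 0.00846), VI (0.40, SE 0.14), III (0.36, SE 0.088), IX (0.31, SE 0.13) and V (0.12, SE 0.053). It was negative on 6, chromosomes IV (-0.24, SE 0.051, adjusted p = 0.00222), XIV (-0.15, SE 0.033), II (-0.14, SE 0.044), XVI (-0.14, SE 0.045), XIII (-0.13, SE 0.041) and XV (-0.051, SE 0.022). The Ndt80 effect itself passed the threshold on 12 chromosomes without Tel1 (75%) and on 0 with Tel1 (0%), where the lowest adjusted p over the 16 was 0.524, no chromosome had an unadjusted p under 0.05 and DESeq2 also called 0. With Tel1 it passed on 3 chromosomes without the time-course series, and on 6 when only hotspot reads were used as well. The calls of chromosomes V, IX and XV rested on their margins: each was lost without 13 to 15 of the 18 replicates, left out 1 at a time, and with reads in hotspots only. With TMM factors in place of library totals, 7 chromosomes passed, 5 positive and 2 negative, and chromosomes VII, XI and XV changed sign.

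The shortest and the longest chromosome moved in opposite directions. Chromosome I had 0.916, 0.966, 0.917, 1.22 and 1.22 times the average density in *sae2Δ ndt80Δ tel1Δ*, against 1.64, 1.57, 1.495 and 1.48 times in *sae2Δ tel1Δ*, and 0.947, 0.967, 1.08 and 1.05 times in *sae2Δ ndt80Δ*, against 1.10, 1.11, 1.10, 1.07 and 1.09 times in *sae2Δ*. Chromosome IV had 1.11, 1.10, 1.07, 0.956 and 0.981 times in *sae2Δ ndt80Δ tel1Δ*, against 0.871, 0.879, 0.895 and 0.902 times in *sae2Δ tel1Δ*, and 1.01, 1.06, 0.995 and 1.04 times in *sae2Δ ndt80Δ*, against 1.02, 1.04, 1.03, 1.02 and 1.03 times in *sae2Δ*. Without Tel1 the 2 groups were separate on both chromosomes, and with Tel1 they overlapped on both. Across the 16 chromosomes, which share their libraries, the interaction had a Pearson r of -0.75 with log2 length (Spearman rho -0.68). It was -0.95 without chromosome XII and -0.45 without chromosomes I, III and VI. The other 13 still include chromosome XII, and the relation without all of these chromosomes together was not worked out.

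Chromosome XII, which carries the rDNA, stood off this line. Its interaction was 0.42 (SE 0.26, edgeR adjusted p = 0.16) and did not pass the threshold, and it was 0.10 with reads in hotspots only and 0.87 without the time-course series, where it passed. The density on the whole chromosome outside the rDNA was 0.328, 0.342, 0.509, 0.728 and 0.351 times the average in *sae2Δ ndt80Δ tel1Δ*, against 0.505, 0.566, 0.578 and 0.609 times in *sae2Δ tel1Δ*, and 0.878, 0.672, 0.833 and 0.682 times in *sae2Δ ndt80Δ*, against 0.754, 0.681, 0.715, 0.701 and 0.724 times in *sae2Δ*. *sae2Δ ndt80Δ tel1Δ* replicate 4, with 45.8% of its reads in hotspots, was above every *sae2Δ tel1Δ* replicate. Left of the rDNA the interaction was 0.93 (SE 0.37) and right of it 0.27 (SE 0.20), and with reads in hotspots only these were 0.65 and -0.046. Neither passed the threshold (adjusted p = 0.0762 and 0.236 by exact permutation), but without the time-course series both did, at 1.47 and 0.58 (adjusted p = 0.019 for both by the same exact test).

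**Figure D3:**
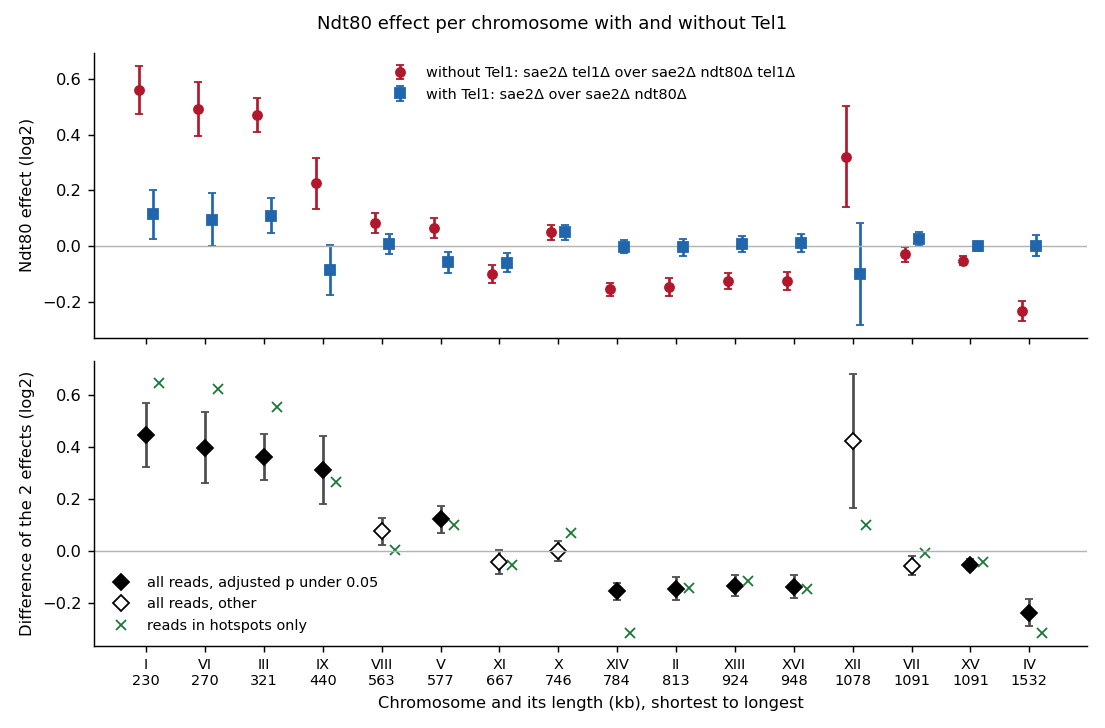
Upper plot, the Ndt80 effect on each chromosome (log2, edgeR fit) without Tel1 (red circles) and with Tel1 (blue squares); lower plot, the difference of the 2 effects, filled where the adjusted p was under 0.05, with the value from reads in hotspots as crosses. Chromosomes run from the shortest to the longest and bars are SE; the difference is 0.45 on chromosome I and -0.24 on chromosome IV, with chromosome XII set apart at 0.42 with a wide bar.

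Each arm was cut into 50 kb bins starting at the centromere. Of these 248 bins, 43 (17.3%) had an interaction past the threshold in edgeR, 9 positive and 34 negative. The Ndt80 effect passed in 82 bins without Tel1 (33.1%) and in 2 with Tel1 (0.806%), and in 94 and 11 with DESeq2. Without the time-course series it passed in 199 and 34. All 9 positive calls were among the 32 bins next to a centromere. All 32 of those bins had a positive interaction, with a median of 0.44, against 153 positive bins and a median of 0.11 over all 248. The 34 negative calls all lay in the third bin from the centromere or farther, as did most bins. The first and the second bin from a centromere held 32 of the 248 each. By size, 25 of these calls were on long chromosomes (73.5%), 9 on medium ones (26.5%) and 0 on chromosomes I, III and VI. These sizes held 61.7%, 31.0% and 7.26% of all bins. With TMM factors, which moved the median of all bins to -0.0063, 15 bins passed, 0 positive and 15 negative, and 31 of the 32 bins next to a centromere were positive with a median of 0.31. The positive calls therefore depended on the scaling. Relative to the median of all bins, those next to a centromere were 0.32 higher with TMM factors and 0.33 higher with library totals.

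Among called bins, the 6 with the largest interaction all touched a centromere. A further 44 bins had a larger value than any of these (up to 1.32, with SE from 0.30 to 0.93) and were not called; 12 of them lay on chromosome XII, where the median over 22 bins was 0.70, and 9 lay next to a centromere. The first called bin lay left of the centromere of chromosome I (101712 to 151711), with 85.6, 91.9, 83.2, 121 and 109 reads per kb and 1000000 reads in *sae2Δ ndt80Δ tel1Δ*, against 166, 171, 161 and 161 in *sae2Δ tel1Δ*. With Tel1 it held 92.9, 104, 110.2 and 124 in *sae2Δ ndt80Δ*, against 119.5, 128, 124, 119 and 112 in *sae2Δ*. Its interaction was 0.59 (SE 0.14, edgeR adjusted p = 0.00822). The others were right of the centromere of chromosome VI (148785 to 198783, 0.48), left of those of chromosomes V (102250 to 152249, 0.46), III (69102 to 119101, 0.44) and X (386365 to 436364, 0.44), and right of that of chromosome XI (439997 to 489995, 0.42). Each was also past the threshold with reads in hotspots only, with interactions from 0.47 to 0.84, and none was with TMM factors. The call at chromosome I held without any 1 replicate, those of chromosomes X and XI were lost only without *sae2Δ ndt80Δ* replicate 3, and those of chromosomes VI, V and III were lost without 13, 8 and 7 of the 18 replicates, left out 1 at a time.

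The 6 called bins with the smallest interaction lay between the fourth and the seventh bin from a centromere, on chromosomes II, IV, XV and XVI. The lowest, on the right arm of chromosome IV (699748 to 749747), held 179.9, 161, 164, 97.2 and 133 reads per kb and 1000000 reads in *sae2Δ ndt80Δ tel1Δ*, against 78.7, 79.0, 82.7 and 78.6 in *sae2Δ tel1Δ*. With Tel1 it held 85.5, 86.1, 85.1 and 102 in *sae2Δ ndt80Δ*, against 82.5, 86.2, 86.5, 75.5 and 82.6 in *sae2Δ*. The *sae2Δ ndt80Δ tel1Δ* replicates other than replicate 4 thus stood well above the other 3 genotypes, which lay close together. The interaction was -0.76 (SE 0.16, edgeR adjusted p = 0.00678). In the neighbouring bin (649748 to 699747) it was -0.71, and it was -0.73 on the right arm of chromosome II (488204 to 538203), -0.71 and -0.70 on chromosome XVI (756053 to 806052 and 356054 to 406053) and -0.68 on chromosome XV (626481 to 676480). All 6 stayed past the threshold with each replicate left out in turn and with reads in hotspots only, and 4 of them with TMM factors, the exceptions being those of chromosome II and of the right arm of chromosome XVI.

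**Figure D4:**
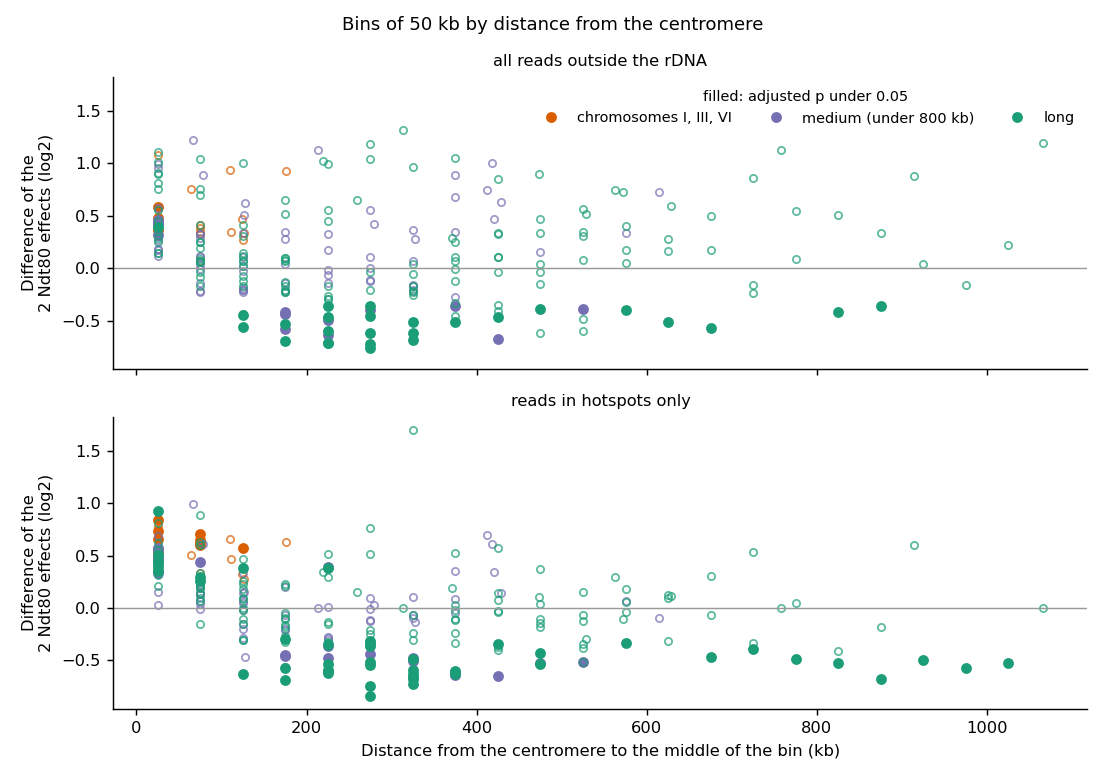
Difference of the 2 Ndt80 effects (log2) in each 50 kb bin against the distance of its middle from the centromere, with all reads (top) and with reads in hotspots only (bottom); filled points had an adjusted p under 0.05, and colours give chromosome size. All 32 bins next to a centromere are above 0, and the filled points below 0 begin in the third bin.

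Leaving out single replicates moved the number of bins called. Without *sae2Δ ndt80Δ tel1Δ* replicate 4 it was 151, and all 43 were among them with the same sign; without *sae2Δ ndt80Δ* replicate 3 it was 26. Without the time-course series it was 184, and with that series as a term in the fit it was 80, and both again held all 43. Positive calls were 64.7% of the 184 and 20.9% of the 43.

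A hotspot is a short stretch in which breaks gather. The 3291 used here, with a median length of 204 bp, were called on the mean profile of each *ndt80Δ* genotype and merged. Their choice thus did not use the genotypes with *NDT80* and was not neutral. A site strong only in *sae2Δ ndt80Δ tel1Δ* could enter, and a site strong only in *sae2Δ tel1Δ* could not. The values from reads in hotspots only rest on the same choice. Its part in the balance of negative and positive calls was not tested. Their counts were scaled to the total in hotspots. The interaction passed the threshold in 88 hotspots (2.67%), 13 positive and 75 negative, and 667 had an unadjusted p under 0.05. The Ndt80 effect passed in 1008 hotspots without Tel1 (30.6%) and in 1 with Tel1 (0.0304%), and in 1127 and 81 with DESeq2. Without the time-course series it passed in 1987 and 464. The median interaction was 0.61 over the 156 hotspots within 25 kb of a centromere, where 148 were positive, and 0.53 over the 200 at 25 to 50 kb. It was 0.40 at 50 to 100 kb, 0.19 at 100 to 150 kb and -0.071, -0.15, -0.11 and -0.044 in the 4 farther classes, against 0.074 over all 3291. On chromosomes I, III and VI the median was 0.66 and 220 of 233 hotspots were positive, and it was 0.082 on medium and 0.0048 on long chromosomes. Chromosome IV alone held 26 of the 75 negative calls and 0 positive ones, with a median of -0.19 over its 413 hotspots.

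These directions rest on the scaling to hotspot reads. When counts were scaled to all reads outside the rDNA, the median over all hotspots fell by 0.45 on the log2 scale to -0.38, 5 hotspots passed, 0 positive and 5 negative, and the median within 25 kb of a centromere was 0.16, with 105 of 156 positive. Relative to the median of all hotspots, that class was 0.54 higher with both scalings. TMM factors gave 220 calls, 73 positive and 147 negative, and DESeq2 gave 223, 67 positive and 156 negative. Without *sae2Δ ndt80Δ tel1Δ* replicate 4, 5 or *sae2Δ ndt80Δ* replicate 4 the number of calls was 440, 165 and 202, and it was 32 to 53 without *sae2Δ ndt80Δ tel1Δ* replicate 3, any *sae2Δ tel1Δ* replicate, *sae2Δ ndt80Δ* replicate 2 or 3, or *sae2Δ* replicate 1, 2, 3 or 7, lowest without *sae2Δ tel1Δ* replicate 1. Without the time-course series it was 1247, of which 69.6% were positive, against 14.8% of the 88, and it held all 88 with the same sign.

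The 10 called hotspots of at least 50 NormHpM with the smallest interaction all had a lower mean in *sae2Δ tel1Δ* than in *sae2Δ ndt80Δ tel1Δ*, and 7 of them had their highest mean in *sae2Δ ndt80Δ tel1Δ*. Strength is given in NormHpM, hits per 1000000 hits in hotspots after subtraction of background. The edgeR fits used counts without that subtraction, so their log2 values differ from ratios of these strengths. The hotspot that overlaps *AIM41*, a gene for a mitochondrial protein (chromosome XV, 746454 to 746725), held 301, 259, 590.2, 142 and 296 NormHpM in *sae2Δ ndt80Δ tel1Δ*, against 37.5, 35.5, 33.8 and 25.0 in *sae2Δ tel1Δ*. With Tel1 it held 72.2, 57.0, 52.4 and 88.1 in *sae2Δ ndt80Δ*, against 71.3, 103, 83.2, 84.1 and 68.0 in *sae2Δ*. Every *sae2Δ ndt80Δ tel1Δ* replicate was above all others, and the *sae2Δ tel1Δ* replicates were below all others. The interaction was -2.94 (SE 0.38, edgeR adjusted p = 7.17e-04), and the Ndt80 effect was -2.83 without Tel1 and 0.10 with Tel1.

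In others the low value of *sae2Δ tel1Δ* made the difference. Between *LRS4*, for a subunit of monopolin, and *DOT1*, for the histone H3 lysine 79 methyltransferase that acts in the pachytene checkpoint (chromosome IV, 1342046 to 1342440), strength was 559, 546, 698, 364 and 831 NormHpM in *sae2Δ ndt80Δ tel1Δ*, against 148, 167, 161 and 148 in *sae2Δ tel1Δ*. In cells with Tel1 it was 784, 757, 705 and 1263 in *sae2Δ ndt80Δ*, against 652, 728, 738, 578 and 768 in *sae2Δ*. Only *sae2Δ tel1Δ* stood apart. The interaction was -1.52 (SE 0.29, edgeR adjusted p = 0.0128). Between *OYE2*, for an NADPH oxidoreductase, and YHR180W (chromosome VIII, 464689 to 464922), strength was 320.0, 333, 278, 183 and 364 in *sae2Δ ndt80Δ tel1Δ*, against 112, 134, 149 and 123 in *sae2Δ tel1Δ*, and 228, 231, 236 and 339 in *sae2Δ ndt80Δ*, against 503, 472, 589, 257 and 506 in *sae2Δ*. Here the fitted Ndt80 effects had opposite signs, -1.14 without Tel1 (adjusted p = 6.44e-04) and 0.83 with Tel1 (adjusted p = 0.113, not past the threshold), and the interaction was -1.97 (SE 0.30, edgeR adjusted p = 0.00443).

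The remaining 7 had interactions from -1.46 to -1.27. None lay within 50 kb of a centromere, where few hotspots lay at all (156 of 3291 at 0 to 25 kb and 200 at 25 to 50 kb). Those at *SRL4* (chromosome XVI, 488136 to 488539, -1.46) and at *NGG1*, for a subunit of the SAGA complex (chromosome IV, 814179 to 814486, -1.44), averaged 901 ± 323 and 545 ± 233 NormHpM in *sae2Δ ndt80Δ tel1Δ*, against 290.4 ± 35.4 and 204 ± 23.1 in *sae2Δ tel1Δ*. With Tel1 they averaged 490.4 ± 146 and 198 ± 21.1 in *sae2Δ ndt80Δ*, against 446 ± 26.1 and 214 ± 9.60 in *sae2Δ* (SD, n = 5, 4, 4 and 5). *SIN4*, for a Mediator subunit, overlaps a hotspot on chromosome XIV (209852 to 210439) with 1034 ± 296 in *sae2Δ ndt80Δ tel1Δ* and 386 ± 31.4 in *sae2Δ tel1Δ*, against 704 ± 78.3 in *sae2Δ ndt80Δ* and 725 ± 28.4 in *sae2Δ*, and an interaction of -1.43. The last 4 were on chromosome IV, between *IWR1* and YDL114W (-1.39), between *MRX16* and *YCF1*, for a vacuolar glutathione conjugate transporter (-1.29), between *APC4*, for a subunit of the anaphase-promoting complex, and *VBA4* (-1.28), and at *MTC5* (-1.27). Of the 10, 6 were on chromosome IV, and the 3 last named of these lay between 687899 and 720659, inside the pair of chromosome IV bins named above. The 26 negative calls of that chromosome became 1 with the scaling to all reads outside the rDNA and 0 with the replicate block. They became 48 with TMM factors and 50 with DESeq2. Of all 88 calls, in both directions, 5 were kept with the scaling to all reads and 2 with the replicate block.

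Of the 10 called hotspots of at least 50 NormHpM with the largest interaction, 7 had their highest mean in *sae2Δ tel1Δ*, among them all 5 on chromosomes I, III and VI. Another 181 of that strength had a larger value than the last of the 10 and were not called. Between *FAB1*, for a phosphatidylinositol 3-phosphate 5-kinase, and *CSS2* (chromosome VI, 191405 to 191796), strength was 550.0, 542, 639.5, 802 and 638 NormHpM in *sae2Δ ndt80Δ tel1Δ*, against 1142, 1279, 1446 and 1033 in *sae2Δ tel1Δ*. With Tel1 it was 384, 349, 513 and 407 in *sae2Δ ndt80Δ*, against 395, 408, 476, 476 and 334 in *sae2Δ*. The interaction was 0.90 (SE 0.20, edgeR adjusted p = 0.0229). Between *FAR7* and *GCN20*, for an activator of the kinase Gcn2 (chromosome VI, 162135 to 162438), strength was 229.8, 218, 283, 350.1 and 314 in *sae2Δ ndt80Δ tel1Δ*, against 495, 642, 664 and 467 in *sae2Δ tel1Δ*, and 147, 132, 217 and 208 in *sae2Δ ndt80Δ*, against 155, 193, 195, 214 and 160.4 in *sae2Δ*, with an interaction of 0.98 (SE 0.24, edgeR adjusted p = 0.038). In both, *sae2Δ tel1Δ* was separate from *sae2Δ ndt80Δ tel1Δ*, and the genotypes with Tel1 overlapped. At *GPA2*, for a G protein alpha subunit (chromosome V, 194586 to 195359), strength was 840.1, 934, 760.0, 1253 and 789.9 in *sae2Δ ndt80Δ tel1Δ*, against 2050.5, 2051, 2004 and 2281 in *sae2Δ tel1Δ*, and 1332, 1536, 1675 and 1072 in *sae2Δ ndt80Δ*, against 1770.0, 1669, 1793, 1574 and 1599 in *sae2Δ*. The interaction was 0.88 (SE 0.20, edgeR adjusted p = 0.0219).

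**Figure D5:**
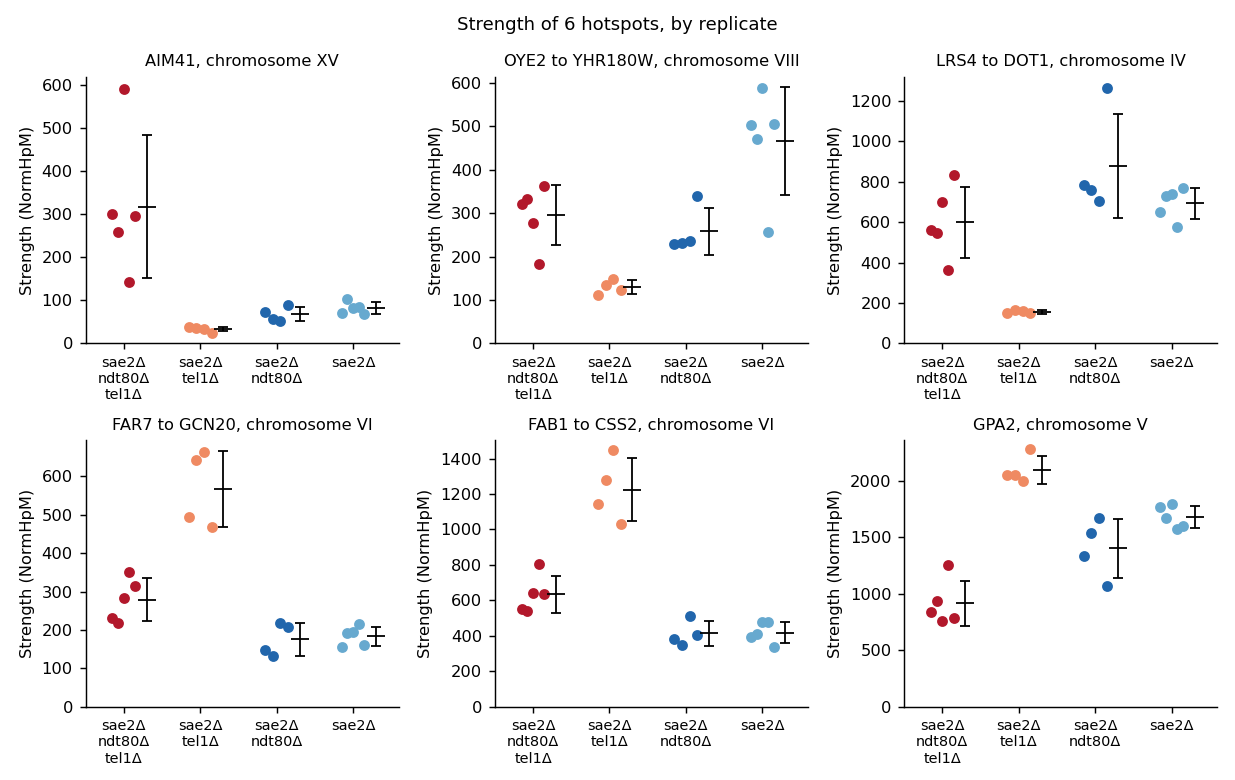
Strength in NormHpM of 6 named hotspots in each replicate of the 4 genotypes, with the mean and SD; upper row, 3 with a negative interaction, lower row, 3 with a positive one. The 4 *sae2Δ tel1Δ* replicates are the lowest in the upper row and the highest in the lower row. The upper row shows the smallest interactions, while the lower row was picked from the named positive hotspots and leaves out the largest. In those of *RTT109* to *DNM1*, *PUF3* to *YEH1* and *IRR1* to *ATG45*, not shown, *sae2Δ tel1Δ* did not have the highest mean.

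The other positive ones were at *KCC4*, for a kinase of the bud neck, and at YCR085W on chromosome III (interactions of 0.69 and 0.89), between *FLC2* and *OAF1* on chromosome I (1.11), at *IRC15* on chromosome XVI (0.91) and between *IRR1*, for a cohesin subunit, and *ATG45* on chromosome IX (0.98). On chromosome XII they lay between *RTT109*, for a histone H3 acetyltransferase, and *DNM1* (1.17), and between *PUF3*, for an mRNA-binding protein, and *YEH1* (1.15). In the 2 on chromosome XII, *sae2Δ tel1Δ* was not the strongest: *RTT109* to *DNM1* held 22.2 ± 6.02 NormHpM in *sae2Δ ndt80Δ tel1Δ* and 49.0 ± 4.28 in *sae2Δ tel1Δ*, against 112 ± 13.0 in *sae2Δ ndt80Δ* and 103 ± 9.95 in *sae2Δ* (SD). Both were weakest in *sae2Δ ndt80Δ tel1Δ*. The hotspot between *IRR1* and *ATG45* had the same order, with 74.0 ± 19.3 and 128 ± 13.4, against 165 ± 17.6 and 143 ± 26.0. All 10 positive ones lay within 150 kb of a centromere, at 3.07 to 148 kb. Of all 3291 hotspots, 156 lay at 0 to 25 kb, 200 at 25 to 50 kb, 471 at 50 to 100 kb and 441 at 100 to 150 kb. Each of the 10 calls was lost without 3 to 14 of the 18 replicates, left out 1 at a time, and with the scaling to all reads outside the rDNA.

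On chromosome III the hotspots of YCR061W, of *ARE1* and of the 2 inserts, and on chromosome IV the strongest hotspot, gave no interaction past the threshold with all replicates. Positions there are those of SacCer3H4L2, and the labels list further *LEU2* copies as markers at *nuc1* in all 4 genotypes and at *ndt80Δ* in 2, so reads of *LEU2* sequence may come from more than 1 locus. At *HIS4*::*LEU2* the hotspot over *RRP7* and *HIS4* (65179 to 66151) held 5008, 5309.7, 3205, 4944 and 2560.0 NormHpM in *sae2Δ ndt80Δ tel1Δ*, against 10109, 8808, 7626 and 9057 in *sae2Δ tel1Δ*. With Tel1 it held 3869, 4229.8, 3718 and 1403 in *sae2Δ ndt80Δ*, against 4169, 4406, 4806, 5334 and 5300.4 in *sae2Δ*. The Ndt80 effect was 1.06 without Tel1 (edgeR adjusted p = 0.00269) and 0.59 with Tel1 (adjusted p = 0.229), and the interaction was 0.47 (SE 0.34, adjusted p = 0.47). Its neighbour over *HIS4* and *BIK1* (67499 to 68830) averaged 4226 ± 756 in *sae2Δ ndt80Δ tel1Δ* and 5878 ± 442 in *sae2Δ tel1Δ*, against 3310.5 ± 799.9 in *sae2Δ ndt80Δ* and 2547 ± 294 in *sae2Δ*, with an interaction of 0.80 (SE 0.23, adjusted p = 0.0608). A weak hotspot within *HIS4* (66835 to 67112) had an interaction of 1.51 with an SE of 0.75.

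At *leu2*::*hisG* the 2 hotspots (93815 to 94612 and 95056 to 96487) averaged 3453 ± 795 and 4278 ± 1013 NormHpM in *sae2Δ ndt80Δ tel1Δ* and 4625 ± 366.3 and 8059.9 ± 456 in *sae2Δ tel1Δ*, against 2917 ± 801 and 2190.2 ± 877 in *sae2Δ ndt80Δ* and 2043 ± 264 and 2664 ± 356 in *sae2Δ*. Their interactions were 0.88 (SE 0.25, adjusted p = 0.0688) and 0.58 (SE 0.33, adjusted p = 0.334). At *ARE1*, for a sterol acyltransferase, the strong hotspot (213905 to 216945) averaged 6603 ± 1769 in *sae2Δ ndt80Δ tel1Δ* and 10984 ± 1227 in *sae2Δ tel1Δ*, against 5310.1 ± 1397 in *sae2Δ ndt80Δ* and 7121 ± 752 in *sae2Δ*, and its interaction was 0.27 (SE 0.26, adjusted p = 0.612). The small hotspot beside it (217489 to 217688) had 0.92 (SE 0.29, adjusted p = 0.0954). At YCR061W (*TVS1*) the strong hotspot (228299 to 229957) had 0.56 (SE 0.23, adjusted p = 0.169).

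The second hotspot of YCR061W (230189 to 230863) separated by Tel1 and not by Ndt80. It held 820.4, 1146, 698, 773 and 477 NormHpM in *sae2Δ ndt80Δ tel1Δ* and 1055, 823, 816 and 1093 in *sae2Δ tel1Δ*, against 93.5, 99.7, 69.2 and 39.0 in *sae2Δ ndt80Δ* and between 77.8 and 102 in the 5 *sae2Δ* replicates. All 9 replicates without Tel1 were above all 9 with it. Its interaction was 0.37 (SE 0.38, edgeR adjusted p = 0.64). The strongest hotspot of chromosome IV, over *SND1* and *CCT6*, for a chaperonin subunit (834865 to 837036), averaged 7693 ± 2134 in *sae2Δ ndt80Δ tel1Δ* and 10645 ± 736 in *sae2Δ tel1Δ*, against 6393 ± 1569 in *sae2Δ ndt80Δ* and 7863 ± 582 in *sae2Δ*, and its interaction was 0.11 (SE 0.26, adjusted p = 0.863), while the 26 called hotspots of that chromosome were all negative. With the scaling to all reads outside the rDNA, 4 of these 10 hotspots turned negative: that over *RRP7* and *HIS4*, the strong one at *ARE1*, the second of YCR061W and that of *SND1*. Without the time-course series 7 of the 10 passed the threshold, all with a positive interaction. The exceptions were the strong hotspot at *ARE1*, the second of YCR061W and that of *SND1*. DESeq2 called 3 of the 10, which were the one over *HIS4* and *BIK1*, the first at *leu2*::*hisG* and the small one beside *ARE1*.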

How the data were processed

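Genomic DNA of meiotic cells (6 h) was enriched for covalently bound Spo11 and sequenced (CC-seq). The deposited values are raw counts, not normalised: for every position, how many Read 1 ends mapped to each strand. The authors aligned reads by Bowtie2 within TermMapper to SacCer3H4L2, the R64 sequence with 2 inserts on chromosome III that add 4247 bp; the filters on mapping quality and duplicates are not given in the sources used here. Gene names came from the R64 annotation, so gene positions beyond the inserts are approximate.

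The 20 libraries were reduced to 18 replicates by summing 2 pairs, with totals from 3217566 to 9385310 reads on chromosomes 1 to 16 outside the rDNA, which were the library sizes for bins and chromosomes. The bins were 50 kb and a pseudocount of 0.5 reads was added per bin before log2; end bins under 10 kb were joined to their neighbour. Hotspots were called with a 201 bp smoothing window on the mean profiles of the 2 *ndt80Δ* genotypes, and their library size was the total in hotspots. Background was the mean density in 51 long genes. After its subtraction, 18 bins had no signal and were left out of that fit.

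Counts of bins, hotspots and chromosomes were fitted with edgeR 4.0.16 (R 4.3.3, quasi-likelihood test, Benjamini-Hochberg adjustment over all features) on the 4 genotypes in 1 design, without a replicate block; DESeq2 1.42.0 was an alternative. Coefficients and densities were tested two-sided by exact permutation of the Ndt80 labels within each Tel1 background (15876 arrangements, Python 3.11.15 with numpy 2.4.6 and scipy 1.17.1), with adjustment within the 3 coefficients, the 3 regions or each distance family. In simulated counts the hotspot fit recovered 67 of 200 hotspots changed by 1 on the log2 scale, with 5 false calls, and 0 of 200 changed by 0.5. The bin fit recovered 31 of 40 bins changed by 1 and 0 of 40 changed by 0.5. The simulation gave all features the same spread and held no series or background differences. Its shares need not hold for the real counts, where the named positive bins were called at 0.42 to 0.59.

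The 6 bins with the largest and the 6 with the smallest interaction past an adjusted p of 0.05 were named, likewise 10 hotspots in each direction with a mean of at least 50 NormHpM, beside hotspots listed by locus. The contrast, lists and rules were chosen with earlier results of these data known. Membership of the time-course series was read from the file names. Alternatives left out single replicates or the time-course series, or changed the scaling, the reads used or the regions. Permutation tests with replicates left out had fewer arrangements than the number stated above.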

Additional observations from a re-analysis of the deposited data

Results flagged for a closer look

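With all replicates and the main settings, the interaction passed the threshold in several measures. The centromere coefficient had an interaction of 0.40, and by distance from the nearer chromosome end it was 0.39 at 50 to 100 kb, -0.077 at 200 to 300 kb and -0.18 beyond 300 kb, each past the threshold by exact permutation. The calls by distance from the end were lost with reads in hotspots only. In the edgeR fits 43 bins, 88 hotspots and 11 chromosomes passed, against 32, 2 and 5 with the replicate block.

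Of 112 sets of 4 or 5 replicates checked, 5 held 1 replicate far from its fellows, and chance gives about 1 in 20. The number found is thus no more than chance gives. The sets also overlap, as chromosome IX belongs to the medium chromosomes. *sae2Δ tel1Δ* replicate 1, the sum of 2 libraries, accounted for 3 of the 5. Its chromosome end coefficient was -1.23, against -0.99 to -0.96 in the other 3 replicates. Its log2 density was -0.13 on the medium chromosomes, against -0.082 to -0.080 in the others, and -0.42 on chromosome IX, against -0.30 in each of the others. *sae2Δ ndt80Δ tel1Δ* replicate 4, with 45.8% of its reads in hotspots, had a log2 density of 0.059 on chromosome II, against 0.20 to 0.23 in the other 4. On chromosome IX, *sae2Δ* replicate 2 had -0.27, against -0.22 to -0.20 in the others.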

How the results depend on the processing

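The time-course series, the scaling, the replicate block and the share of reads in hotspots bore on these results, and no alternative varied library depth. The series holds no library with *NDT80*, so the contrast has a value without the series and none within it. With 4 or 5 replicates a genotype, the adjusted p of the 3 region densities stood at 0.0557. Permutation tests with several replicates left out had fewer arrangements, so a missed threshold there cannot show that an interaction was lost. The cause of each change was not tested.

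The centromere coefficient kept its direction in every alternative and its call in all but 4: 0.48 without the time-course series, 0.56 and 0.51 when hotspot reads or background subtraction were used as well, and 0.37 without the 3 replicates under 50% in hotspots. It was 0.37 to 0.45 with single replicates left out. The length slope (0.039) turned negative with the replicate block (-0.025), without chromosome XII (-0.014), with hotspot reads (-0.10), with background subtracted (-0.17), and with these 2 without the time-course series (-0.099 and -0.20); single replicates gave -0.011 to 0.071, negative only without *sae2Δ ndt80Δ tel1Δ* replicate 5. The end coefficient was 0.60 to 0.99 with single replicates left out, past the threshold without *sae2Δ ndt80Δ tel1Δ* replicate 4 or *sae2Δ ndt80Δ* replicate 2.

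The centromere density passed with unsummed libraries (0.29), the replicate block (0.30), permuted Tel1 labels (0.28), hotspot reads (0.40), background subtracted (0.39) and without chromosomes I, III and VI (0.28), and was 0.26 to 0.30 with single replicates left out. The density of chromosomes I, III and VI passed with unsummed libraries (0.42), the replicate block (0.45), hotspot reads (0.61) and background subtracted (0.62), and was 0.35 to 0.45 with single replicates left out. The end density passed with unsummed libraries (0.61) and was 0.52 to 0.83 with single replicates left out. Without the time-course series the centromere density (0.32) and that of chromosomes I, III and VI (0.42) did not pass.

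Of the 15 distance classes, 3 passed, against 8 with unsummed libraries, 6 without the time-course series, 9 with the replicate block, 6 with permuted Tel1 labels, 7 with hotspot reads, 8 with background subtracted and 0 to 9 with single replicates left out. The 43 bins became 184 without the time-course series, 74 without the 3 replicates under 50%, 80 with a series term, 15 with TMM factors, 65 with DESeq2, 77 with hotspot reads, 166 with hotspot reads without the series, and 26 to 151 with single replicates left out. The 88 hotspots became 228 with unsummed libraries, 1247 without the series, 630 with a series term, 2 with the replicate block, 220 with TMM factors, 223 with DESeq2, 5 with the library size of all reads outside the rDNA, and 32 to 440 with single replicates left out. With Tel1, the Ndt80 effect passed in 2 bins, 1 hotspot and 0 chromosomes, against 34, 464 and 3 without the series, 64 bins and 6 chromosomes with hotspot reads without the series, 11 bins and 81 hotspots with DESeq2, 40 hotspots with unsummed libraries, 19 hotspots with a series term and 0 bins and hotspots with TMM factors or the replicate block. The 11 chromosomes became 5 with the replicate block, 7 with TMM factors and 8 to 14 with single replicates left out.

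Values near 0 changed sign. The centromere class 100 to 150 kb (-0.0041) was 0.0021 with unsummed libraries, 0.016 with the replicate block, 0.11 with hotspot reads, 0.10 with background subtracted, 0.034 without the 3 replicates under 50%, and 0.0012 to 0.022 without 1 of 7 replicates. Beyond 500 kb it was 0.038 without the series. Within 20 kb of ends it was -0.64 with background subtracted. With hotspot reads the medium chromosomes gave -0.0037, chromosome XII right of the rDNA -0.046 and, without the series, chromosome VIII -0.018. With TMM factors chromosomes VII, XI and XV gave 0.0068, 0.019 and 0.0097. Chromosome X gave -0.015 without the series, -0.029 without the 3 replicates under 50%, -0.0049 with a series term, and -0.016 to 0.024 with single replicates left out, negative for 9 of them. With the library size of all reads outside the rDNA, the hotspots at *RRP7*/*HIS4*, *ARE1* (IMG1/BUD23/ARE1), *TVS1* and *SND1*/*CCT6* gave -0.048, -0.21, -0.27 and -0.39. *TVS1* gave -0.20 without the 3 replicates under 50%, and *SND1*/*CCT6* gave -0.11 without the series and -0.023 to 0.25 with single replicates left out, negative only without *sae2Δ ndt80Δ* replicate 2.

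Whether equal replicate numbers pair the samples was not settled. Of 22 pairs of same-numbered replicates 12 had a correlation over 0.1, with a range of -0.82 to 0.81, and 4 of 17 replicates correlated best with their own number. The level to expect without pairing was not worked out. The replicate block also took the bins to 32.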
